A study of Mus musculus with 12 samples.

Results

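The genes described here build the calcium store of heart muscle, the sarcoplasmic reticulum (SR), and move calcium into and out of it. They are Ryr2, Fkbp1b, Atp2a2, Pln, Sln, Casq2, Hrc, Trdn, Jph2 and Slc8a1. They were chosen by name for these roles, with earlier results of these data known. All 10 were found among the 21563 genes of the deposited comparison table. They were read in poly-A RNA libraries of the heart tube (HT, n = 6) and of the posterior second heart field (pSHF, n = 6), dissected at E10.0 from CD1 mouse embryos. All embryos were wild type, and the labels name no treatment or engineered allele for either group. The heart tube is the beating early heart. The pSHF is mesoderm lying behind it that supplies cells to the atria and the atrial septum. Per the labels, HT and pSHF came from the same embryo. Whether each library stands for a separate embryo is not stated, so a p-value here covers only the variation among libraries, which may be technical.

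At each beat, calcium that enters through the surface membrane opens ryanodine receptors in the facing SR membrane, and the calcium they release starts contraction. The pump SERCA2 then returns calcium to the SR, where calsequestrin and other proteins of the lumen bind it, while the sodium-calcium exchanger carries calcium out of the cell. Small membrane proteins such as phospholamban and sarcolipin hold the pump back. Atp2a2 is also made in most other cell types, whose endoplasmic reticulum needs a calcium pump, whereas Pln and Casq2 are largely muscle genes.

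Values are normalized gene counts as deposited, and each fold change is the HT minus pSHF difference in log2(value + 1), tested with limma over 14909 genes. This scale understates the change of genes with low counts. Of the 10 genes, 9 were higher in HT, none was higher in pSHF and 1, Fkbp1b, was not called at an adjusted p of 0.05. In the same test 38.3% of all genes tested were called higher in HT and 40% higher in pSHF. The median log2 fold change of the 10 genes was 3.31, with a range of 0.23 to 7.87, against a median of -0.02 over all genes tested. For 8 of the 10, every HT library lay above every pSHF library, as did 30.1% of all genes tested. The same 8 were higher in HT by more than 1 on the log2 scale and past the test, which 13.4% of all genes tested were. The tissue labels matched the heart muscle genes Tnnt2, Tnnc1, Actc1, Actn2 and Ttn, all higher in HT by 3.64 to 4.78, and these 5 serve below as a reference for heart muscle RNA. In bulk tissue, fewer muscle cells and less RNA per muscle cell cannot be told apart.

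**Figure D1:**
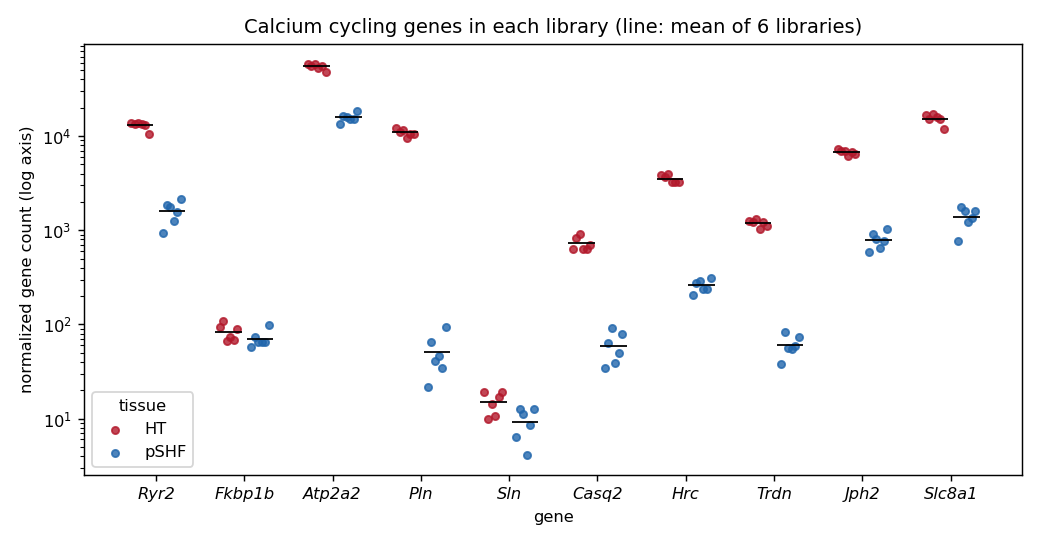
Normalized gene count (log axis) of each calcium cycling gene in 6 HT and 6 pSHF libraries, with points for libraries and lines for tissue means. The tissues lie apart for 8 genes, farthest for Pln, and overlap for Sln and Fkbp1b.

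The depth rebuilt from the values ran from 20634400 to 25645400 reads over HT libraries, and from 19089600 to 26287300 over pSHF libraries. Rebuilt reads, here and below, are approximate, since only 46.5 to 49.4% of low values were whole reads. The summed share of 7 erythroid genes was 1.43 to 6.20% of normalized counts in HT and 0.301 to 0.599% in pSHF. All 6 endothelial markers (5 with equal library totals) and all 5 ventricular markers were higher in HT, and all 6 endoderm, 5 neural crest, 6 neuronal and 5 hepatic markers were higher in pSHF. Atrial markers were divided, with 3 higher in HT and Nr2f1 and Nr2f2 higher in pSHF, as were smooth muscle markers, with 4 higher in HT and Myh11 higher in pSHF. Of 7 skeletal muscle markers tested, 4 were higher in HT (Ckm, Mylpf, Tnnt3 and Actn3). The 3 regulators Myod1, Myog and Myf5 were higher in pSHF, Myod1 being listed at 0 in every HT library. Their contribution to the values below was not tested.

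Release of calcium was represented by Ryr2 and Fkbp1b. Ryr2 encodes the cardiac ryanodine receptor, the channel through which the SR empties. Its lowest, median and highest counts were 10614, 13436 and 13841 in HT and 946, 1671 and 2151 in pSHF. The tissues were far apart, with 5 HT libraries close together and library MR30 below them. The log2 difference was 3.08 (SE 0.15, adjusted p = 6.3e-11), and the pSHF mean was 12.2% of the HT mean. Ryr2 lies at chr13:11553102-12106945 on the minus strand of GRCm38, and its merged exons span 28790 bases.

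Fkbp1b encodes FKBP12.6, which binds the ryanodine receptor and steadies its closed state. It had 67.2, 81.3 and 109 counts (lowest, median, highest) in HT and 57.5, 65.6 and 97.8 in pSHF. The ranges overlapped, and the log2 difference of 0.23 (95% confidence interval -0.09 to 0.56) did not pass the test (adjusted p = 0.175). The interval excludes the change of its partner Ryr2. Its close relative Fkbp1a, encoding FKBP12, held 97.2% of the pair's level per kilobase in HT and 96.0% in pSHF.

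Uptake showed the widest contrast among the 10 genes. Atp2a2, which encodes SERCA2, had 48471, 56146 and 58921 counts (lowest, median, highest) in HT and 13335, 15673 and 18567 in pSHF. It was higher in HT by 1.81 on the log2 scale (SE 0.069, adjusted p = 2.6e-12), and pSHF kept 28.6% of the HT mean. No library of one tissue reached the other, yet this was the smallest change among the 8 genes with separated tissues.

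Pln, encoding the pump inhibitor phospholamban, had 9594, 10855 and 12189 counts in HT and 21.4, 43.8 and 95.1 in pSHF (lowest, median, highest). The pSHF mean of 50.7 ± 26.1 (SD, n = 6) was 0.464% of the HT mean of 10927 ± 928. The log2 difference of 7.87 (SE 0.25, adjusted p = 4.1e-13) ranked 2 among the 14909 genes tested. Pln lies at chr10:53337667-53345987 on the plus strand, and 1644 bases of its exons are shared with Gm47644 on the opposite strand. Whether the reads kept their strand is not settled by the labels, so reads of that antisense gene could be counted with Pln.

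Sln encodes sarcolipin, a pump inhibitor that in the mature heart is typical of the atria. It was near the limit of detection, with 146 rebuilt reads over all 12 libraries. Counts were 9.94, 15.5 and 19.2 in HT and 4.09, 9.89 and 12.7 in pSHF (lowest, median, highest). The ranges overlapped. The log2 difference was 0.68 (SE 0.29, adjusted p = 0.0405), and the call was lost on leaving out any one of 7 of the 12 libraries (HT MR25, MR27, MR29 and MR30, and pSHF MR13, MR16 and MR17), with adjusted p of up to 0.0948. When library totals were made equal, the difference was 0.46 (adjusted p = 0.154). The authors' deposited table gave Sln an adjusted p of 0.0900.

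Storage in the SR lumen was represented by Casq2, which encodes the cardiac calcium buffer calsequestrin 2, and Hrc, encoding a histidine-rich calcium-binding protein. Casq2 had 630, 669 and 921 counts in HT and 34.2, 56.9 and 90.8 in pSHF. It was higher in HT by 3.66 (SE 0.21, adjusted p = 3.1e-10). Hrc had 3217, 3468 and 3919 counts in HT and 208, 258 and 315 in pSHF, a difference of 3.76 (SE 0.092, adjusted p = 3.6e-14). Neither gene overlapped between the tissues, and pSHF held 8.20% and 7.41% of the respective HT means.

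Trdn and Jph2 serve the junction at which the SR faces the surface membrane. Triadin, the product of Trdn, links calsequestrin to the ryanodine receptor, and junctophilin 2, the product of Jph2, ties the membranes together. Trdn had 1023, 1219.5 and 1325 counts in HT and 38.4, 58.0 and 82.7 in pSHF (lowest, median, highest). Its difference of 4.30 (SE 0.14, adjusted p = 6.5e-13) was the largest of the 10 after Pln. Jph2 had 6082, 6848 and 7252 counts in HT and 587, 787 and 1031 in pSHF, and its difference was 3.11 (SE 0.11, adjusted p = 1.3e-12). Both genes were separated by tissue in all 12 libraries.

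Slc8a1, encoding the sodium-calcium exchanger NCX1 of the surface membrane, had 12041, 15527 and 17167 counts in HT and 768, 1482 and 1785 in pSHF. The tissues did not overlap, and the lowest HT value, as for Ryr2 and Atp2a2, was that of MR30. The difference was 3.50 (SE 0.16, adjusted p = 2.5e-11), and the pSHF mean was 9.06% of the HT mean. An antisense gene, AC122399.1, shares 296 exon bases with it.

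**Figure D2:**
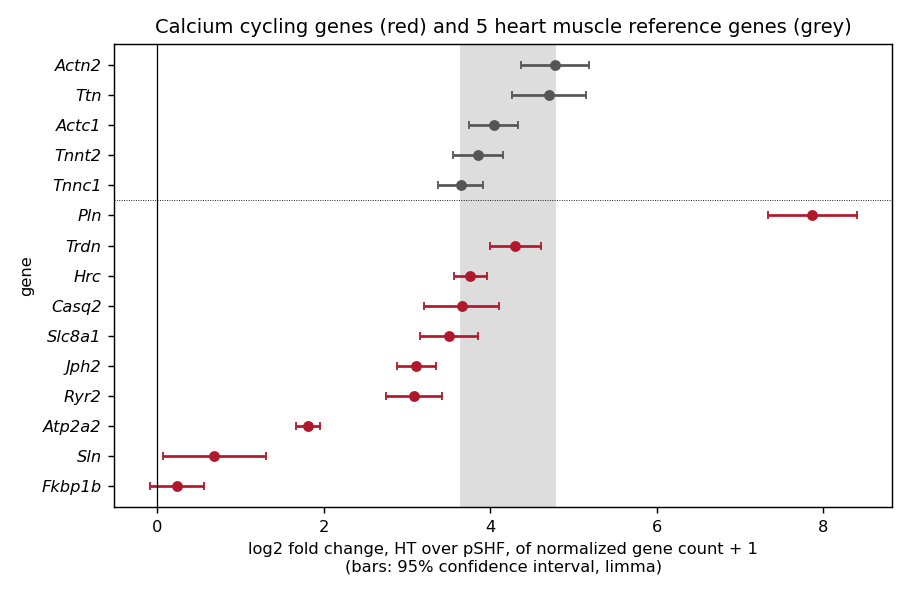
Log2 fold change, HT over pSHF, of each calcium cycling gene (red) and of 5 heart muscle reference genes (grey), with 95% confidence intervals from limma. Pln stands at 7.87, the reference genes at 3.64 to 4.78, Atp2a2 at 1.81, and the Fkbp1b interval crosses 0.

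The 250 bases before the RefSeq start (GRCm38.p6) were read for the 7 genes that the promoter table held, among 32851 promoters. The following are shown because they accompany the largest change, a buffer and an exporter that rose in HT, and the gene that did not pass the test. They are the windows of Pln (chr10:53337436-53337685, plus strand), Casq2 (chr3:102086165-102086414, plus), Slc8a1 (chr17:81738388-81738637, minus) and Fkbp1b (chr12:4841574-4841823, minus). Capitals mark matches to GATAA on either strand or to the MEF2 motif.
Pln: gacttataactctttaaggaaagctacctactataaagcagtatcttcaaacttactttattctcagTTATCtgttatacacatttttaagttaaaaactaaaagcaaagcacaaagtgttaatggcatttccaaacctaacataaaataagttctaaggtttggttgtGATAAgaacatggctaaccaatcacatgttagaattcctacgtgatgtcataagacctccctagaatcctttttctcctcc
Casq2: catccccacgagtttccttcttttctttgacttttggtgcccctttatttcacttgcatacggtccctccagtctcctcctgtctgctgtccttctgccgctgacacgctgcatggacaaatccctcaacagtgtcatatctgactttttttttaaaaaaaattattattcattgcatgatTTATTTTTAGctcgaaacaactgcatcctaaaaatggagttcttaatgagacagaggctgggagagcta
Slc8a1: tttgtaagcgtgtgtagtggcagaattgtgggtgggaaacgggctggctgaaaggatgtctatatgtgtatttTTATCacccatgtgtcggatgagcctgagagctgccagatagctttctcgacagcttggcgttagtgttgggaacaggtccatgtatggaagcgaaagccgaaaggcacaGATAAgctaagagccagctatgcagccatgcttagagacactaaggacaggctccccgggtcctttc
Fkbp1b: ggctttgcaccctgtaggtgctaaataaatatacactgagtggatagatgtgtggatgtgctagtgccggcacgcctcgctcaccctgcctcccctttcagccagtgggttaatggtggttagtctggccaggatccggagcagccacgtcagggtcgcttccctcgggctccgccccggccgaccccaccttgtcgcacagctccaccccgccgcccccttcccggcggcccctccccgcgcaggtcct

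The Pln window had a GC content of 32.8%, at or below which lay 3.18% of all promoters, whereas the Fkbp1b window had 64.8%. The letters of the Pln window held GATAA at 2 places and TATAAA, the TATA box, at 1. GATAA, the core of the GATA factor motif, was also found at 2 places before Slc8a1 and 1 before Hrc, and occurred in 22.6% of all promoters. TATAAA occurred in 12.4% of them. The single MEF2 match was before Casq2, against 2.92% of all promoters. GGGCGG, the GC box, had 2 matches before Fkbp1b and 1 each before Hrc and Jph2, and occurred in 32.7% of promoters. No window held CATTCC (TEAD), AGGTGT (T-box) or the CArG box, which occurred in 12.6%, 11.8% and 1.47% of promoters. CANNTG, the E-box, was found before every one of the 7 genes except Fkbp1b, and in 66.2% of all promoters. Both strands were searched. A match is a run of letters and not evidence of binding.

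Set against heart muscle RNA, the 10 genes differed among themselves. The mean log2 level of the 5 reference genes was subtracted in each library, and the difference between tissues was tested for each gene by a two-sided exact permutation test, whose smallest p with 6 libraries a tissue is 0.00216. Pln was the gene that stayed higher in HT, at -2.07 ± 0.05 against -5.74 ± 0.36 in pSHF (SD, n = 6, exact p = 0.00216), a difference of 3.67. Trdn did not pass the test, at -5.27 ± 0.04 in HT and -5.37 ± 0.20 in pSHF, with overlapping ranges (difference 0.10, exact p = 0.361). The other 8 genes were lower in HT on this scale, each without overlap between tissues (exact p = 0.00216 for each). The share of all genes tested without overlap on this scale was not computed, so these 8 are not set apart from other genes. The differences between tissues were -0.45 for Hrc, -0.55 for Casq2, -0.70 for Slc8a1, -1.09 for Jph2, -1.12 for Ryr2 and -2.39 for Atp2a2. For Sln and Fkbp1b, the genes near their pSHF level in HT, they were -3.52 and -3.97.

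On that scale nearly every gene was lower in HT. In limma on the same values, 99% of all genes tested were called higher in pSHF and 0.215% higher in HT, so the 8 called higher in pSHF are near the background and Pln is 1 of 32 called higher in HT. Limma calls for Casq2 (adjusted p = 0.0119) and Hrc (adjusted p = 0.0253) were lost without Actn2 in the reference (0.0521 and 0.107), and that of Hrc without Ttn (0.0887) or HT library MR29 (0.0542). Without pSHF library MR15 that of Casq2 was lost (0.0598).

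Ratios between 2 members within a library do not depend on library scaling. For Pln over Atp2a2, the inhibitor over its pump, the ratio of normalized counts was 0.198 ± 0.0142 in HT (0.180 to 0.219) and 0.00311 ± 0.00127 in pSHF (0.00160 to 0.00512). The log2 ratio differed by 6.06 with no overlap (exact p = 0.00216, 0.00361 adjusted over 10 ratios). Per kilobase of exon the means were 0.437 and 0.00685. The ratio of Sln to Pln ran the other way, at 0.00137 in HT and 0.205 in pSHF (log2 difference -7.18, exact p = 0.00216), without overlap.

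Slc8a1 over Atp2a2, the exporter over the pump, was 0.277 ± 0.0182 in HT and 0.0872 ± 0.0177 in pSHF, again without overlap (exact p = 0.00216). Atp2a2 over Ryr2, uptake over release, was 4.23 ± 0.203 in HT and 10.4 ± 2.18 in pSHF, and Fkbp1b over Ryr2 was 0.00646 ± 0.00155 and 0.0461 ± 0.00889. Both were higher in every pSHF library (exact p = 0.00216). Trdn over Casq2 was higher in HT, at 1.67 ± 0.222 against 1.10 ± 0.287, without overlap (exact p = 0.00216). Casq2 over Ryr2 was also higher in HT, by 0.57 on the log2 scale with overlapping ranges (exact p = 0.00866), and Sln over Atp2a2 was lower in HT by a log2 difference of -1.13, also overlapping (exact p = 0.00649).

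A pair of ratios did not pass the test. Jph2 over Ryr2 was 0.519 ± 0.04999 in HT and 0.509 ± 0.0575 in pSHF, a log2 difference of 0.03 (exact p = 0.719). Hrc over Casq2 was 4.94 ± 0.649 and 4.75 ± 1.17, a log2 difference of 0.10 (exact p = 0.569).

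**Figure D3:**
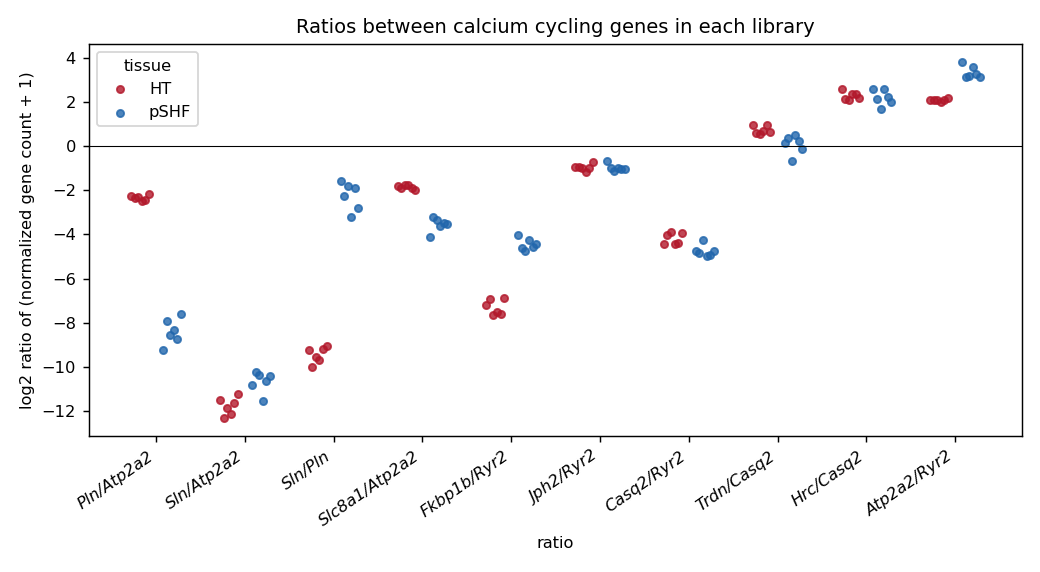
Log2 ratio of normalized gene counts (each plus 1) for 10 pairs of calcium cycling genes, with 1 point per library. Pln over Atp2a2 and Sln over Pln show the widest gaps between HT and pSHF, and Jph2 over Ryr2 and Hrc over Casq2 overlap.

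Levels of different genes were compared per kilobase of merged exon, which understates genes with many transcript forms. In HT the order was Atp2a2 at 9072 ± 624 counts per kilobase, Pln at 3961 ± 336, Jph2 at 1583 ± 99.97, Hrc at 1375 ± 123, Slc8a1 at 816 ± 95.8 and Ryr2 at 454 ± 42.6. Casq2 followed at 265 ± 44.2, then Trdn at 127 ± 11.8, Fkbp1b at 81.8 ± 16.3 and Sln at 11.4 ± 3.07. Jph2 and Hrc overlapped in range, although Jph2 was above Hrc in 6 of 6 libraries.

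In pSHF Atp2a2 again led, at 2595 ± 284 counts per kilobase, followed by Jph2 at 186 ± 39.3, Hrc at 102 ± 15.7, Slc8a1 at 73.9 ± 19.4, Fkbp1b at 69.4 ± 13.8 and Ryr2 at 55.2 ± 15.02. Casq2 at 21.7 ± 8.26 and Pln at 18.4 ± 9.46 could not be ordered, Casq2 being higher in 3 of 6 libraries. Sln and Trdn were lowest, at 7.03 ± 2.68 and 6.52 ± 1.65. Neighbours from Hrc downward overlapped in range. Among 14865 genes ordered per kilobase, Pln ranked 208 in HT and 11845 in pSHF, while Atp2a2 ranked 79 and 261.

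The relatives of these genes mark which member of each family was present. In pSHF the ryanodine receptors Ryr1 and Ryr3, the former typical of skeletal muscle and the latter known from brain and smooth muscle, had 302 ± 67.6 and 662 ± 102 counts, against 33.1 ± 4.48 and 394 ± 96.7 in HT (log2 differences -3.13 and -0.77). Ryr2 took 95.3 ± 0.847% of the family's level per kilobase in HT and 52.4 ± 7.05% in pSHF (exact p = 0.00216). Slc8a1 took 95.2 ± 0.698% in HT and 51.9 ± 6.81% in pSHF, where Slc8a2, an exchanger known from brain, took 44.6% (exact p = 0.00216). Jph2 took 97.2 ± 0.305% and 79.6 ± 4.15%, with the neuronal junctophilins Jph3 and Jph4 higher in pSHF (log2 differences -1.45 and -3.13).

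Atp2a2 dominated the pump family in both tissues, with 98.7 ± 0.137% in HT and 97.2 ± 0.618% in pSHF (exact p = 0.00216). In the calsequestrin pair Casq1, the skeletal muscle form, held 93.4% of the level per kilobase in HT and 95.5% in pSHF. Casq1 had 7368 ± 887 counts in HT and 923 ± 355 in pSHF, a log2 difference of 3.07. The share of Casq2 was 6.58 ± 0.959% in HT and 4.47 ± 1.16% in pSHF, with overlap (exact p = 0.0108). Over the 11 relatives, 5 were higher in HT, 5 higher in pSHF and 1, Slc8a3, was not called, with a median log2 difference of -0.16, shares near the 38.3% and 40% of all genes. With equal library totals 4 and 5 were called, against 26.2% and 54.8% of all genes tested.

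The markers of other cell types differed between the tissues too. The summed counts of 6 neuronal genes ran from 1964 to 3126 in pSHF and from 566 to 635 in HT, and 8 skeletal muscle genes from 215 to 641 in pSHF and from 673 to 883 in HT. Their part in the family shares was not tested. Ryr3 shares 916 exon bases with Aven on the opposite strand, Ryr1 864 with Gm26604, Atp2a1 763 with Rabep2 and Casq1 156 with Gm17224. The counts of these genes are uncertain if the reads were not stranded.

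**Figure D4:**
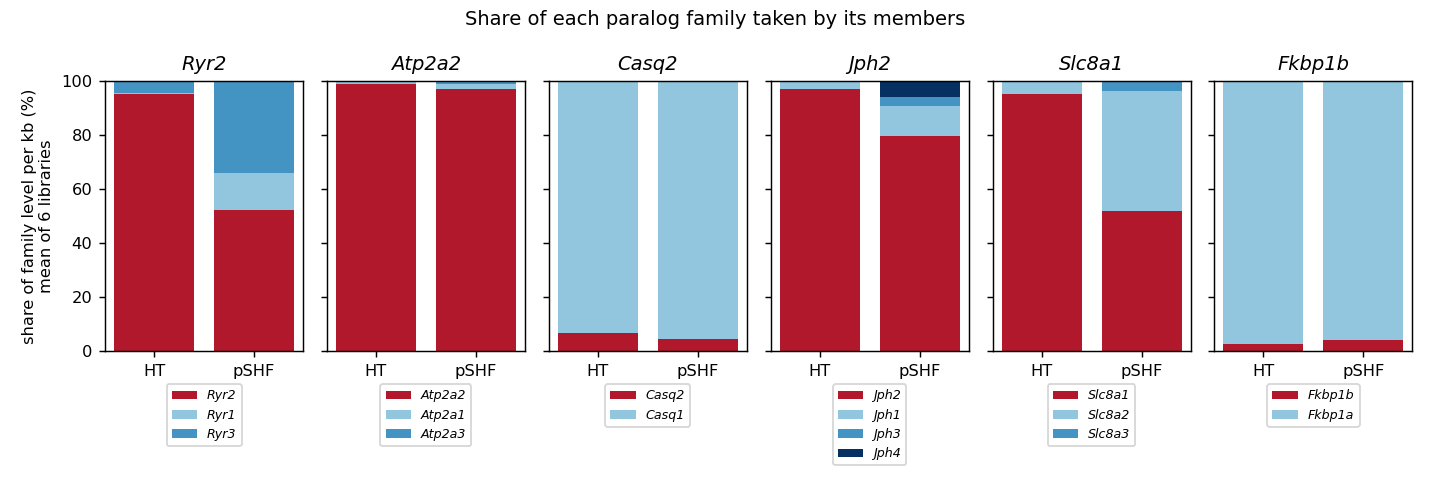
Share of the summed level per kilobase of each of 6 families taken by each member, as stacked bars of the mean of 6 libraries per tissue. Ryr2 and Slc8a1 fill most of their bars in HT and about as much as their relatives in pSHF, whereas Casq1 and Fkbp1a fill most of theirs in both.

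The wider calcium machinery was read from lists of 66 genes in all, relatives included. Of these, 48 were higher in HT, 10 higher in pSHF and 8 not called, with a median of 0.66 against -0.02 over all genes, of which 38.3% and 40% were called. With equal library totals, which moved the median of all genes to -0.26, the calls were 40 and 16, against 26.2% and 54.8% of all genes. The members' own direction was the same under that scaling for all but Fkbp1b, which went to -0.01.

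Around the SR, 9 of 10 other genes were higher in HT and Bin1 was lower, against 38.3% and 40% of all genes tested. With equal library totals 8 were higher and Bin1 was lower, against 26.2% and 54.8%. Cav3, the muscle caveolin, changed most, from 13.9 ± 7.69 counts in pSHF to 670 ± 61.1 in HT (log2 difference 5.66). Bin1, which shapes membrane tubules, went from 1751 ± 49.6 to 314 ± 19.0 (-2.48). Of 5 matched pump and channel regulators, S100a1 (2.87) and Sri (1.11), the gene of sorcin, were higher in HT. Calm3, 1 of 3 calmodulin genes, was higher by 0.14, and lower in HT by a difference of -0.11 with equal library totals.

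All 13 kinase, phosphatase and receptor genes that tune these proteins were higher in HT, against 38.3% of all genes tested. They ran from Prkaca, the catalytic subunit of protein kinase A, at 0.44 to Akap6, which anchors that kinase near the ryanodine receptor, at 3.63. With equal library totals 12 were called higher in HT, against 26.2% of all genes tested. Akap6 had 1373 ± 117 counts in HT and 114 ± 36.5 in pSHF.

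Of 11 calcium channel and pump genes of the surface membrane, 8 were higher in HT, 1 was lower and 2 were not called. Of all genes tested, 38.3% were higher and 40% lower. With equal library totals 7 were higher and 2 lower, against 26.2% and 54.8% of all genes tested. The 2 were Cacna1g and the pump gene Atp2b1 (-0.26, adjusted p = 0.000164 by limma), and Atp2b3 was not tested under that scaling. Cacnb2, a subunit of the L-type channel that triggers release, was higher by 2.23, at 1322 ± 105 against 282 ± 35.4 counts. The gene lower in HT under both scalings was Cacna1g, a T-type channel gene, with 191 ± 60.4 counts in HT and 2616 ± 459 in pSHF (-3.81). The libraries of the tissues did not overlap for either gene.

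Calcium release and entry genes shared with many cell types were called at shares near those of all genes (38.3% in HT and 40% in pSHF). Of 8 genes of inositol trisphosphate release and store-operated entry, 4 were higher in HT, led by the receptor Itpr2 (1.41), and 3 were higher in pSHF, namely the channel genes Orai2 (-1.25) and Orai3 (-0.51) and the receptor Itpr3 (-0.16). With equal library totals 4 were called in each direction, against 26.2% and 54.8% of all genes tested. Mitochondrial calcium genes were not near the 38.3% and 40% under the deposited scaling, as 6 of 8 were higher in HT and none in pSHF. The 6 ran from Mcu, the uniporter pore, at 0.14 to Mcub, its regulator, at 1.08. Mcub had overlapping ranges and low counts, with means of 11.7 ± 6.87 and 4.49 ± 2.24. With equal library totals 3 were higher in HT and 1 in pSHF, against 26.2% and 54.8% of all genes tested. Mcu (-0.10), Slc8b1 (0.04) and Mcub (0.88, adjusted p = 0.0772) lost their calls there, so the departure depends on the scaling.

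Within pSHF, the 10 genes varied together from library to library. Their coefficients of variation had a median of 25.8% in pSHF and 9.31% in HT, and were larger in pSHF for 9 of 10 genes. Across all genes tested the medians were 7.91% and 8.86%, with the larger value in pSHF for 40.0%. Library MR13 held the lowest pSHF value of 9 of the 10 genes, and MR18 the highest of 6. The reference level was also lowest in MR13, at 10.64 on the log2 scale, and highest in MR18, at 11.87.

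Over the 6 pSHF libraries, Pearson's r with the reference was positive for all 10 genes, from 0.785 (Sln) to 0.982 (Atp2a2). By exact permutation of pairings, 9 of the 10 had an adjusted p under 0.05 over 20 relations, and 4 of 10 did by Spearman's rho. At an unadjusted exact p under 0.05, 9 of the 10 correlated positively, against 4.66% of all genes tested. Ryr2 had r = 0.976 and rho = 1 (exact p = 0.00139 and 0.00278, adjusted 0.0139 for both), and r was 0.935 without MR13 and MR18. Pln had r = 0.927 and rho = 0.829 (exact p = 0.0125 and 0.0583), and r was 0.602 without those libraries. Without them r ran from 0.602 to 0.997 over the 10 genes.

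The slopes differed in size. Per unit of log2 reference, Atp2a2 rose by 0.36 (0.31 to 0.37 on leaving out 1 library), Hrc by 0.50 (0.48 to 0.52), Ryr2 by 0.97 (0.83 to 1.08) and Pln by 1.55 (1.38 to 1.70). The slopes of Atp2a2 and Pln, the pump and its inhibitor, did not overlap under any library left out. These are descriptions of 6 libraries that share the reference on the x axis.

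**Figure D5:**
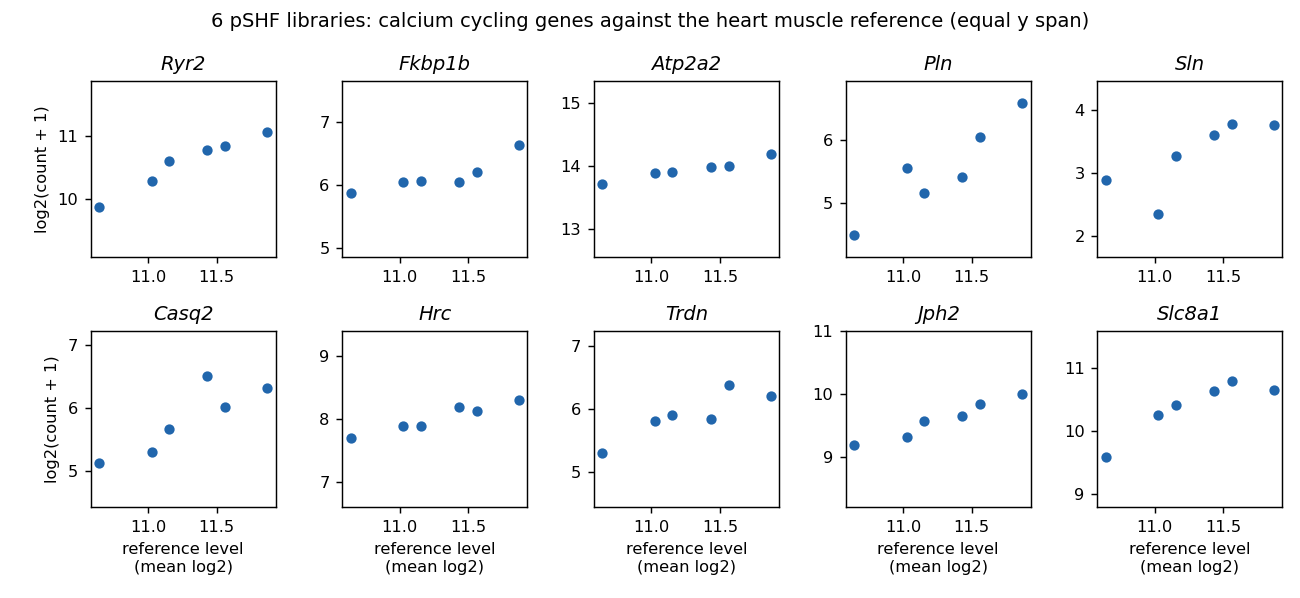
Log2 level of each calcium cycling gene against the mean log2 level of 5 heart muscle reference genes in the 6 pSHF libraries, with the same span on every y axis. Points climb steeply for Pln and gently for Atp2a2.

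In HT, where the reference spanned 15.27 to 15.61, the adjusted p was under 0.05 for 3 of 10 genes by Pearson's r. These were Trdn (r = 0.966, exact p = 0.00139), Jph2 (r = 0.943, exact p = 0.00417) and Pln (r = 0.901, exact p = 0.0125), with rho of 1, 0.943 and 0.886. By rho the genes with an adjusted p under 0.05 were Trdn (exact p = 0.00278, adjusted 0.0139), Jph2 and Hrc (both exact p = 0.0167, adjusted 0.0476), and Pln did not pass (exact p = 0.0333, adjusted 0.0606). At an unadjusted exact p under 0.05, 4 of the 10 correlated positively by r, against 8.48% of all genes tested. Without MR28R and MR30, r was 0.809 for Trdn, 0.586 for Jph2, 0.777 for Pln and 0.966 for Hrc. Ryr2 (r = 0.272, rho = 0.600, exact p = 0.613 and 0.242) did not pass, and its r was 0.707 without those libraries. The difference between tissues in these relations was not tested. MR28R and MR30 had 6.20 and 5.07% erythroid RNA.

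Genes outside the lists whose deviations from the tissue mean were most like the mean of the 10 were sarcomere and myocyte genes, over 12 libraries and 12336 genes. Mybpc3, encoding a myosin-binding protein of the thick filament, came first with r = 0.994, followed by Mylk3 (0.990), Myom1 (0.988), Myh6 (0.982) and Rbm20 (0.982). Within each tissue taken by itself, r for Mybpc3 was 0.969 in HT and 0.997 in pSHF. Its log2 difference of 4.52 lay above those of 9 of the 10 calcium cycling genes.

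The other deposited table, of raw counts, was shallower, with 1.08 to 1.295% of the rebuilt depth. Ryr2, Atp2a2, Pln, Hrc, Trdn, Jph2 and Slc8a1 passed its filter on low counts, and edgeR called all 7 higher in HT, against 25.2% of 3370 genes tested. A gene could pass that filter through its HT counts alone, which favours a call higher in HT. Trdn, for one, had 10 to 17 counts in HT and 0 to 2 in pSHF. The calls are therefore not separate support. Pln had 21 to 42 counts in HT and 0 to 4 in pSHF, and its log2 difference there was 4.78 against 7.87. Hrc had 28 to 42 and 7 to 16 counts (2.02 against 3.76). Casq2, Sln and Fkbp1b did not pass the filter.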

How the data were processed

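Poly-A RNA of 6 HT and 6 pSHF libraries was sequenced as 50-base single-end reads, and each library used 1 µg of total RNA and a TruSeq version 2 kit, per the labels' protocols. That kit does not mark strand by design, while the protocol calls the reads stranded. STAR, DESeq2 and the mm10 build were used by the authors, per the submitters' processing notes. Their versions, and which annotation and counter were used, were not stated there. The deposited comparison table held, for each library, a signal termed normalized gene counts in this account, with the authors' log2 fold change, its standard error, a test score, and p-value and adjusted p-value. In it, 46.5 to 49.4% of low values (under 20.5 reads) were whole reads within a tolerance of 0.01, so counts were not recovered and no count test was the leading one. The other deposited table held raw counts, per the file headers, of 233865 to 340434 per library, and was tested only as an alternative, by the quasi-likelihood test of edgeR (version 4.0.16). Columns name tissue and a library code, which set the groups.

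Genes with a mean of at least 5 were tested with limma (version 3.58.1, trend) in R 4.3.3 after adding a pseudocount of 1 and taking log2, with Benjamini-Hochberg adjustment over all genes tested. Ratios, family shares and reference-scaled levels were tested by two-sided exact permutation (SciPy 1.17.1). The exact test of reference-scaled levels, the family shares and the share of all genes related to the reference were added after the values were seen, the first because genes that share a reference also share its error, which makes limma's p too small. Exons and lengths came from GENCODE M21 (GRCm38). The 10 genes and all lists were chosen with earlier results of these data known. All 10 were described. From each other list the called genes with the largest and smallest log2 fold change and those against the majority were named, and outside the lists the 5 genes most like the 10. The limma and edgeR fits were tested on simulated data. Alternatives were other pseudocounts, filters, scalings, thresholds and reference genes, and leaving out each library. Strit1, Mrln, Erln and Arln were not matched and were not analysed here.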

Additional observations from a re-analysis of the deposited data

Results flagged for a closer look

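Among 74 sets of 6 libraries examined (members, ratios, reference-scaled levels, family shares and the reference level itself, each within a tissue), 6 had a single library farther from the rest than Dixon's 95% critical value allows. Chance alone is expected to mark about 1 in 20 sets. In HT, Ryr2 was 10613.9 counts in MR30, below the other libraries. In pSHF library MR13, the log2 ratio of Jph2 to Ryr2 was -0.69, above the rest. Library MR15 of pSHF stood apart for Casq2 in 3 related measures, with a log2 ratio of Casq2 to Ryr2 of -4.27, a level relative to the heart muscle reference of -4.91 and a share of 6.70% of the calsequestrin family. In pSHF library MR16, Sln relative to the reference was -8.68, below the rest.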

How the results depend on the processing

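No paired analysis was possible because the table's columns carry a tissue and a library code but no replicate number, so no replicate block could be fitted. With equal library totals, the log2 fold change of Fkbp1b was -0.0102, Sln lost its call (also with erythroid genes left out, 0.50, adjusted p = 0.121 by limma, and at a threshold of 0.01), and 16 of the 66 wider genes were higher in pSHF. With edgeR on the raw counts 10 of them were higher in HT and 0 in pSHF, against 25.2% of 3370 genes tested called higher in HT. Fewer genes passed its filter, which HT counts alone could satisfy, so these calls are not separate support. Without Tnnc1 in the reference, the Trdn difference was -0.0452. Leaving out each library in turn gave 8 to 10 of the 10 genes higher in HT, 46 to 48 and 9 to 10 of the wider genes higher in HT and pSHF, and, relative to the reference, 1 and 7 to 8 of the 10. The 10 arose without pSHF library MR18, where Fkbp1b reached 0.33 (adjusted p = 0.0483 by limma). The Jph2 to Ryr2 log2 difference ran from -0.0162 to 0.0870 and that of Hrc to Casq2 from -0.000885 to 0.18. The causes were not tested. Sln and Fkbp1b rested on few reads, 146 and 933 rebuilt reads over all libraries. The log2 fold changes of the other 8 genes kept direction and call in every alternative that tested them.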
